A study of Rattus norvegicus with 4 samples.

Results

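Ubiquitin D (Ubd) and 8 interferon and antigen processing genes were described in 4 livers, each from a male rat of the Sprague-Dawley stock, 10 to 12 weeks old and given no treatment. The genes were Ubd, Ifgga2l1, Irf1, Irf7, Mx1, Mx2, Psmb8, Psmb9 and B2m, all of them named on the array. They had 11 of the 15923 probe sets of the array and were 9 of the 10412 genes with a probe set of 1 symbol. The genes were chosen by their signals on these same arrays, among them a low Ubd signal in replicate 1, so levels and spreads are given as descriptions, with no test. The 4 rats form 1 group without treatment, each measured on its own Affymetrix array, so animal and array cannot be told apart. Values are log2 signals, given as mean ± SD (n = 4 rats). Having only 4 arrays limits how precise any spread is.

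Interferons bind receptors that activate JAK kinases and STAT factors, and the STATs and the interferon regulatory factors (IRFs) then switch on genes that restrict viruses and raise antigen display. Cells display peptides on class I molecules: the proteasome cuts proteins, the TAP transporter carries the peptides into the endoplasmic reticulum, and beta-2-microglobulin pairs with the class I heavy chain. Under interferon gamma, inducible subunits replace the standard catalytic subunits and form the immunoproteasome. Ubd is a ubiquitin-like protein that marks proteins for the proteasome and is known to be induced by interferon gamma together with tumour necrosis factor.

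A gene was called above background when its brightest probe set had a mean over a log2 signal of 8.25. That level is the 95th percentile of 74 probe sets whose genes mark the brain, muscle, testis or eye. Of the 9 genes, 7 were above background, where 50.3% of all named genes were. Ubd, Ifgga2l1, Irf1, Irf7, Psmb8, Psmb9 and B2m were above it in 4 of 4 rats, and Mx1 and Mx2 were below it in each rat. The level depends on its gene list. The muscle myosin gene Myh1 was left out of that list because its probe sets were known to be bright on these arrays. With Myh1 added the level was 9.16, and 3 of the 9 genes, Ubd, Psmb8 and B2m, were above it. How bright a probe set is depends on its probes as well as on the transcript, so signals are not compared as amounts between genes.

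**Figure D1:**
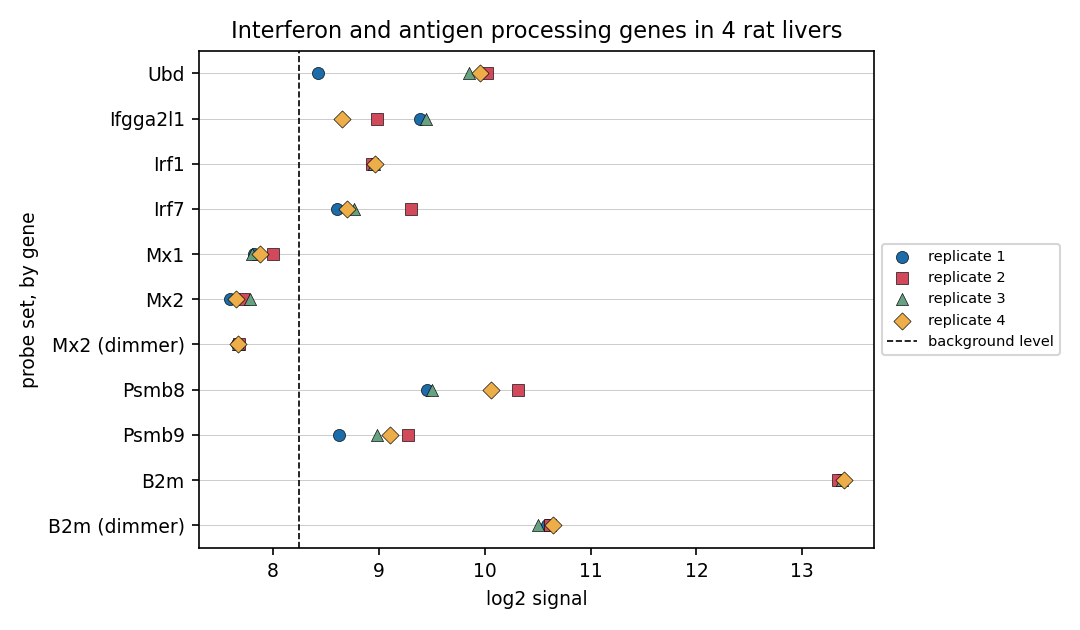
Log2 signal (horizontal axis) of the 11 probe sets (vertical axis) in each of the 4 rats, 1 point per rat, with the background level of 8.25 as a dashed line. Ubd has 1 rat at 8.43 and 3 between 9.85 and 10.02, Psmb8 spreads over 0.85, and Irf1 and the brighter B2m probe set have their 4 points nearly on top of each other.

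Ubd was at 8.43 in replicate 1, 10.02 in replicate 2, 9.85 in replicate 3 and 9.96 in replicate 4. Replicate 1 alone lay low, and the other 3 rats lay between 9.85 and 10.02. Their mean was 9.94 ± 0.09 (SD, n = 3), so replicate 1 was lower by 1.51 log2 units, a 2.86-fold difference in signal. Over the 4 rats the mean was 9.57 ± 0.76, and an SD as large was found in 0.172% of the genes above background. Of the 7 genes above background, Ubd was the 1 with a single rat apart from the other 3, where 4.89% of the genes above background and not flat had one. Flat here means equal to within 0.001 on all 4 arrays, and apart means a gap that Dixon's test calls at 95%, used as a description. Ubd has 1 probe set on the array, so no second one bears on this value. In whole liver, fewer cells of a type and less RNA per cell cannot be told apart.

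The promoter of Ubd is shown because it holds a kB motif close to the gene's start, and those of Psmb8, Irf7, Irf1 and B2m because they hold the motifs of STAT and IRF factors. Sequences are from RefSeq on the rat build GRCr8, whose animal is of another strain than these rats. Each runs from 250 bases before the annotated start to 20 bases after it, 5′ to 3′, with capitals on the motif matches.
Ubd, chr20:1392666-1392935, minus strand: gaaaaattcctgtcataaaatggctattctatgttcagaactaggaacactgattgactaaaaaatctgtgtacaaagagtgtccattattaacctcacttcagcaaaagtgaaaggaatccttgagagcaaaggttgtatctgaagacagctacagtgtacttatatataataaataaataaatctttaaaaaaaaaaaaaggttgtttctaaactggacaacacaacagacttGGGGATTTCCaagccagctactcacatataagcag
Psmb8, chr20:4657012-4657281, minus strand: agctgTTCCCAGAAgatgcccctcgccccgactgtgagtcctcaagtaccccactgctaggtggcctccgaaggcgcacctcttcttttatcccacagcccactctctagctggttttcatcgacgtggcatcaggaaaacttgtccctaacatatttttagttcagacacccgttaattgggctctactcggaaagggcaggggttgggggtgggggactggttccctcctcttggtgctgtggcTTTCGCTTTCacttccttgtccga
Irf7, chr1:205800004-205800273, minus strand: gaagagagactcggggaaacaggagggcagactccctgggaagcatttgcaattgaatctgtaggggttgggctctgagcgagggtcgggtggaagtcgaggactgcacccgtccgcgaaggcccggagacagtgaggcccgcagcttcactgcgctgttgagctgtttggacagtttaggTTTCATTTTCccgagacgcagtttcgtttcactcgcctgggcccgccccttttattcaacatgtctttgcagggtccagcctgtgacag
Irf1, chr10:38417685-38417954, plus strand: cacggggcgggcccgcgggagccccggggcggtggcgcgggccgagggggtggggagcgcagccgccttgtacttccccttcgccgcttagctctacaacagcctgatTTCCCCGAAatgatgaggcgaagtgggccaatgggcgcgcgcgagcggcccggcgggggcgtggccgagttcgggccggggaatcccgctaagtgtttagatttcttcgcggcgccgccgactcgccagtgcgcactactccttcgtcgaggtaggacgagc
B2m, chr3:129549080-129549349, plus strand: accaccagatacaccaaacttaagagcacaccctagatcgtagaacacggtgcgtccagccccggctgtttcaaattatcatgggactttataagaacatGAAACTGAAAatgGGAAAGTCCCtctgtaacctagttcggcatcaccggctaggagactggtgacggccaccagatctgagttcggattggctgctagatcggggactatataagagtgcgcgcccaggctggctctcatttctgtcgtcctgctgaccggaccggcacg

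The motifs were searched on both strands as GAAA, any 2 bases and GAAA for the interferon-stimulated response element, TTC, any 3 bases and GAA for the gamma-activated site and GGG, any 2 bases and TTTCC for the kB site. A promoter was listed for 8 of the 9 genes. The response element was found in 4 of the 8 (Ifgga2l1, Irf7, Psmb8 and B2m), and in 3.62% of 33469 promoters of the same length. The gamma-activated site was found in 3 of the 8 (Ifgga2l1, Irf1 and Psmb8), against 8.18% of all. The kB letters were found in 2 of the 8 (Ubd and B2m), against 1.38% of all. In Ubd the match lay at positions -15 to -6 from the start, in Psmb8 a response element spanned the start from -4 to 6, and in B2m both motifs lay between -150 and -128. Matches in these promoters did not overlap. The windows of Mx1 and Psmb9 held none of the 3. A match describes letters and was not tested as a binding site.

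The factors Irf1 and Irf7 differed in spread. Irf1, a transcription factor that interferon gamma induces, was at 8.95 in replicate 1, 8.93 in replicate 2, 8.96 in replicate 3 and 8.97 in replicate 4. These 4 values spanned 0.04 in all, and 61.0% of the genes above background had an SD at least as large. Another 35.2% of the genes above background were flat, so few of those not flat had a smaller SD than Irf1. Irf7, which amplifies the type I interferon response, was at 8.61, 9.30, 8.77 and 8.70 in replicates 1 to 4. Replicate 2 lay above the other 3 rats, which lay between 8.61 and 8.77. The mean of Irf7 was 8.84 ± 0.31, and 2.33% of the genes above background had as large an SD. Without replicate 2 the SD of Irf7 was 0.0811.

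The immunoproteasome subunits Psmb8 and Psmb9 are the inducible catalytic subunits beta5i and beta1i. Psmb8 was at 9.46 in replicate 1, 10.31 in replicate 2, 9.50 in replicate 3 and 10.06 in replicate 4. Replicates 1 and 3 lay close together and below replicates 2 and 4, and the highest rat exceeded the lowest 1.81-fold. Psmb9 was at 8.63, 9.28, 8.99 and 9.10 in replicates 1 to 4, with a mean of 9.0 ± 0.28. Its lowest and highest rats were those of Psmb8, replicates 1 and 2, but replicate 3 lay near replicate 4. The other 4 genes listed for the immunoproteasome and its activator were above background, against 50.3% of all named genes. Psmb10, the remaining inducible catalytic subunit, and Psme1, a subunit of the interferon-induced activator cap, were flat, at 8.82 and 10.92. Psme2, the other cap subunit, was at 9.86 ± 0.03, and the assembly factor Pomp at 10.88 ± 0.09.

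Standard proteasome genes were above background for 13 of 14 genes, against 50.3% of all named genes. Psmb5, which Psmb8 replaces, was flat at 10.92. Of the 9 that were not flat, 6 were lowest in replicate 2, where 28.8% of all genes above background and not flat were, and none was highest there. Psmb1 was at 10.61, 10.27, 10.58 and 10.39 in replicates 1 to 4, and Psma5 at 10.10, 9.98, 10.31 and 10.01. The core subunits Psma6 at 10.65 ± 0.12 and Psmb4 at 10.60 ± 0.10 were lowest in replicate 2 as well. Psmb8 and Psmb9 thus were highest in the rat in which 6 of these 9 standard genes were lowest, and this contrast was not tested.

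Psmb8 and Psmb9 lie in the class II region of the major histocompatibility complex on chromosome 20, with only Tap1 between them among protein-coding genes. The annotated starts of Psmb9 and Tap1, a subunit of the peptide transporter, are 457 bases apart on opposite strands. The 12 protein-coding genes from RT1-Da to RT1-DMa, a stretch chosen after its values were seen, include both. Of its 9 probe sets above background and not flat, 8 had replicates 2 and 4 above replicates 1 and 3, where 15.5% of all probe sets above background and not flat did. The brighter RT1-Bb probe set and that of RT1-DMa lay below the level in replicates 1 and 3 and passed it only through replicates 2 and 4. For these the call depends on the pattern itself, and the stretch was picked on its values, so nothing is read from this share. RT1-Bb, the beta chain of the class II molecule RT1-B, was at 7.44, 9.03, 7.25 and 9.42 in replicates 1 to 4 on its brighter probe set. Its other probe set lay between 7.91 and 8.06, below background. RT1-Ba, the alpha chain, gave 8.22, 9.59, 8.36 and 9.66 on one probe set. On its second probe set it gave 9.78, 8.89, 9.71 and 8.99, so the 2 probe sets of 1 gene ran in opposite directions. Whether the probe sets of RT1-Ba read the same transcript was not tested. The 2 probe sets of Tap1 were below background, at 7.68, flat, and 8.20. That of Tap2, flat at 8.2457, lay just under the level of 8.2491. With the 90th percentile as the level, 8.2222, Tap2 was above it. Ubd lies on the same chromosome, 148 protein-coding genes away from Psmb8.

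**Figure D2:**
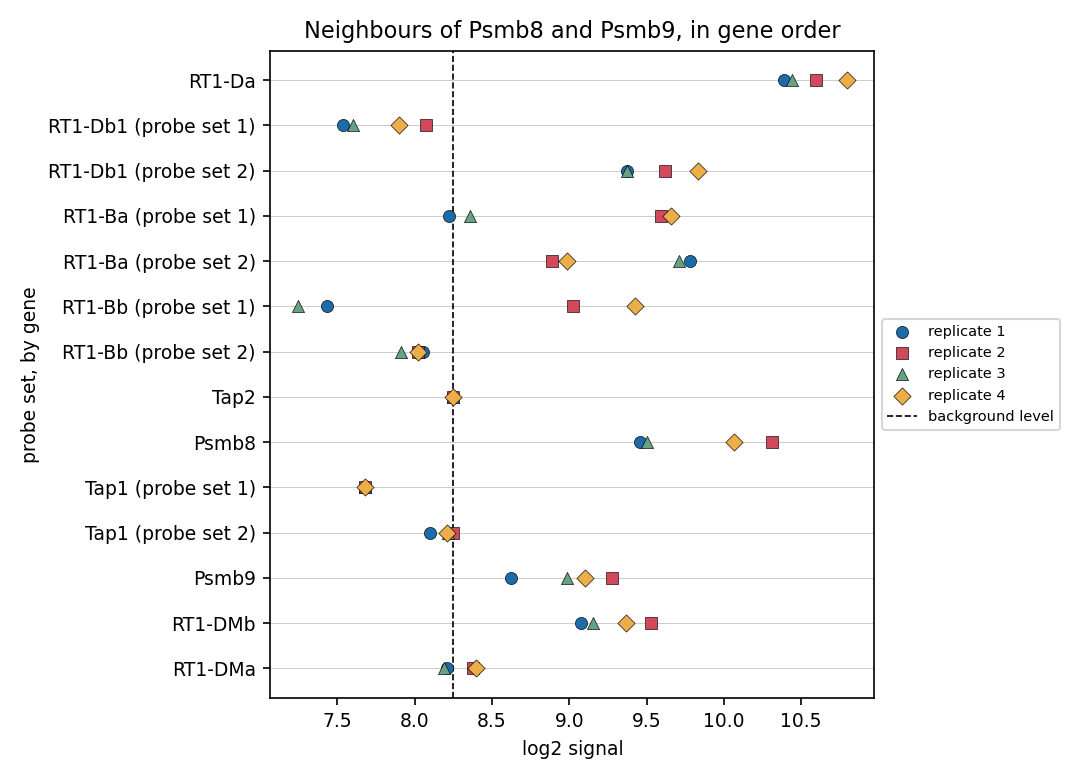
Log2 signal (horizontal axis) in each of the 4 rats of the 14 probe sets of the stretch from RT1-Da to RT1-DMa, in gene order from top to bottom, with the background level of 8.25 as a dashed line. Replicates 2 and 4 lie right of replicates 1 and 3 for Psmb8, Psmb9 and most class II probe sets, and left of them for the second RT1-Ba probe set (9.78 and 9.71 in replicates 1 and 3).

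B2m, the constant light chain of class I molecules, was nearly equal in the 4 rats. Its brighter probe set was at 13.35, 13.33, 13.37 and 13.39 in replicates 1 to 4. Its second probe set was at 10.59, 10.62, 10.50 and 10.64. Both were highest in replicate 4, and they disagreed on the lowest rat. RT1-S3, a class I heavy chain gene, had the largest SD of the class I presentation genes above background. It was at 9.83, 10.58, 10.62 and 10.29 in replicates 1 to 4 on its brightest probe set. All 4 of its probe sets were lowest in replicate 1, where 29.5% of genes above background and not flat were. The other heavy chain genes above background were steadier. The SD was 0.05 for RT1-CE5, 0.04 for RT1-CE12 and RT1-CE16, 0.15 for RT1-CE10 and 0.22 for RT1-T24-3. RT1-M3-1 and RT1-T24-4 were flat. Class I genes of the rat are near copies of each other, so probes can read several of them.

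Among the antiviral GTPases, Ifgga2l1, by its name an interferon gamma induced GTPase, was at 9.39 in replicate 1, 8.98 in replicate 2, 9.44 in replicate 3 and 8.65 in replicate 4. Replicates 1 and 3 lay above replicates 2 and 4, the reverse of Psmb8. Its mean was 9.12 ± 0.37. Mx1, a dynamin-like GTPase that restricts RNA viruses, was at 7.83, 8.0, 7.80 and 7.88 in replicates 1 to 4. Mx2, its relative on the same chromosome, lay between 7.60 and 7.78 on one probe set and between 7.66 and 7.68 on the other. These signals were near the highest mean of 24 control probe sets for Bacillus transcripts (7.75), which the mean of Mx1 exceeded and the means of both Mx2 probe sets did not. In replicate 3 the brighter Mx2 probe set, at 7.78, lay above it. Low signal here leaves unknown whether the transcript was made.

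Of the 7 genes above background, 4 (Ubd, Irf7, Psmb8 and Psmb9) were lowest in replicate 1, where 29.5% of the genes above background and not flat were. The lowest rat was replicate 2 for 28.8% of those genes, replicate 3 for 18.5% and replicate 4 for 23.3%. The same 4 were highest in replicate 2, where 21.5% were, against 24.8% in replicate 1, 33.0% in replicate 3 and 20.7% in replicate 4, and 9.27% of those genes were both. The other 3 differed: Irf1 and B2m were lowest in replicate 2 and highest in replicate 4, and Ifgga2l1 was lowest in replicate 4 and highest in replicate 3. Of the 7, 5 had an SD of at least 0.2, against 5.34% of all genes above background. The median SD of the 9 genes was 0.275, and that of the 7 above background was 0.311. Over all genes above background it was 0.0318, and over those not flat 0.0564. The median of the 9 was 0.0999 without replicate 1 and 0.0966 without replicate 2. These are the SDs of Mx1 and Mx2, which were below background. Over the 7 the median fell on Psmb9, at 0.145 without replicate 1 and 0.249 without replicate 2. Replicates 2 and 4 both lay above replicates 1 and 3 for 3 of the 7 (Ubd, Psmb8 and Psmb9), against 15.8% of genes above background and not flat. Since variable genes were known when the set was made, nothing is read from these shares.

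**Figure D3:**
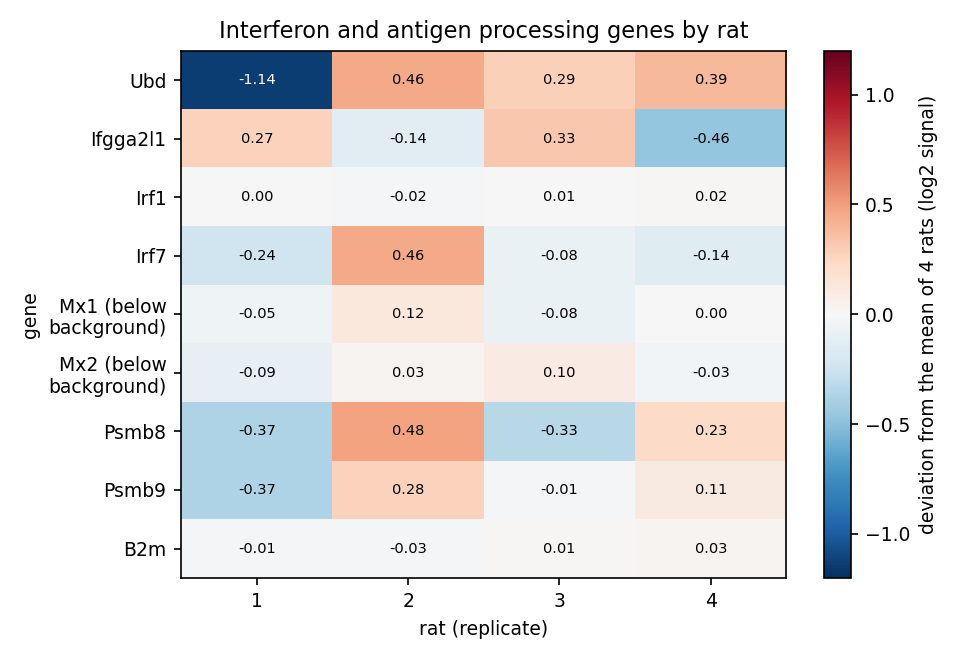
Deviation of each of the 9 genes (rows, brightest probe set) from its own mean over the 4 rats, in log2 units, by rat (columns), with red for higher and blue for lower. Ubd in replicate 1 stands at -1.14, Ubd, Irf7, Psmb8 and Psmb9 are blue in replicate 1 and red in replicate 2, and Irf1 and B2m stay within 0.03 of 0.

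**Figure D4:**
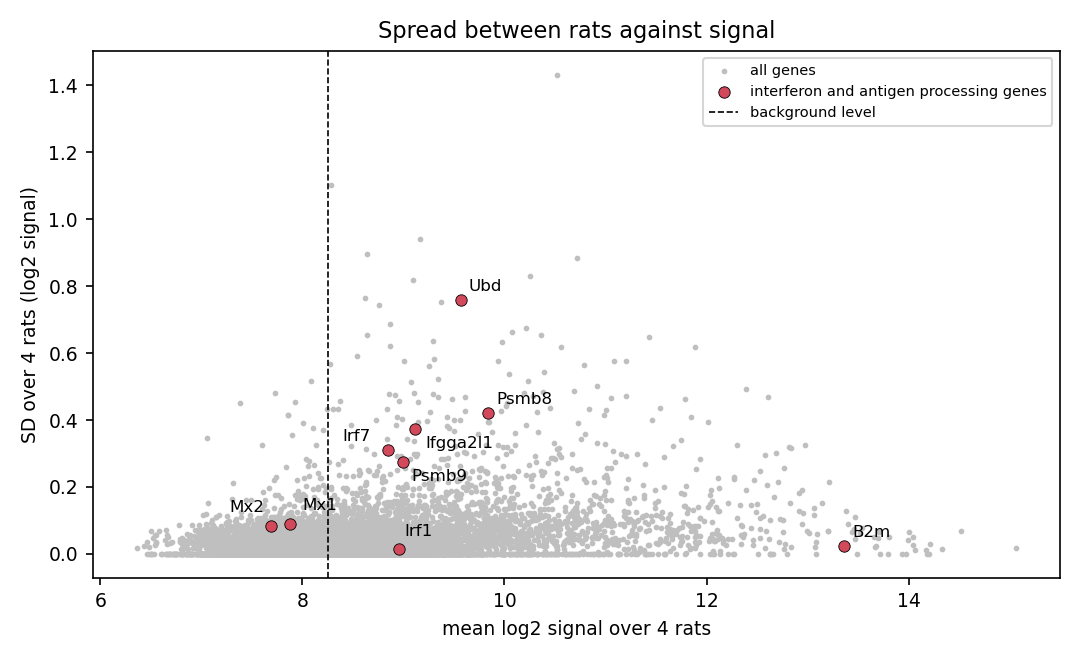
SD over the 4 rats (vertical axis) against mean log2 signal (horizontal axis) for all 10412 genes in grey and the 9 genes in red, with the background level of 8.25 as a dashed line. Ubd (0.76), Psmb8 (0.42), Ifgga2l1 (0.37), Irf7 (0.31) and Psmb9 (0.28) lie highest among the 9 genes, Mx1 (0.09) and Mx2 (0.08) lie left of the dashed line with smaller spreads, and Irf1 and B2m lie lowest.

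Of 17 listed interferon and cytokine genes, 7 were on the array, and 0 of these 7 were above background, among them Ifng and Ifnb1. With the highest Bacillus control mean (7.75) as the level, 4 of the 7 were above it. The brightest were Tnf at 8.18, flat, Il18 at 8.06 ± 0.02 and Il12b at 7.93 ± 0.03. Receptors and signalling genes were above background for 9 of 14 genes, against 50.3% of all named genes. The interferon gamma receptor chain Ifngr1 was at 9.06 ± 0.04, the signal transducer Stat2 at 9.33 ± 0.08 and Irf3 at 9.15 ± 0.05. Irf9, a DNA-binding partner of Stat2, was at 8.37, 8.68, 8.57 and 8.41 in replicates 1 to 4, lowest and highest in the same rats as Irf7. That pair of rats was shared by 9.27% of genes above background and not flat. Of the 6 such genes in this list, 4 were lowest in replicate 4 and 4 were highest in replicate 3, against 23.3% and 33.0%.

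Antiviral interferon-induced genes were above background for 15 of 23 genes, against 50.3% of all named genes, and 11 of the 15 were not flat. Of the 11, 8 were highest in replicate 2 and 6 were lowest in replicate 4, against 21.5% and 23.3% of the genes above background and not flat. With the level of 9.16, 6 antiviral genes were above it, and all 4 of them that were not flat were highest in replicate 2. Ifi27, a mitochondrial and nuclear membrane protein of the interferon response, was at 12.68, 13.09, 12.83 and 12.48 in replicates 1 to 4. Usp18, which removes the ubiquitin-like modifier ISG15 and dampens interferon signalling, was at 8.60, 9.19, 9.06 and 8.57. Ifitm3, which blocks virus entry, was at 10.35, 11.76, 11.12 and 11.10, lowest in replicate 1 as Ubd was. Ifi27l2b, a relative of Ifi27, was at 11.15 ± 0.30. Replicate 2 was the highest rat for Irf7 and for these 4 genes.

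**Figure D5:**
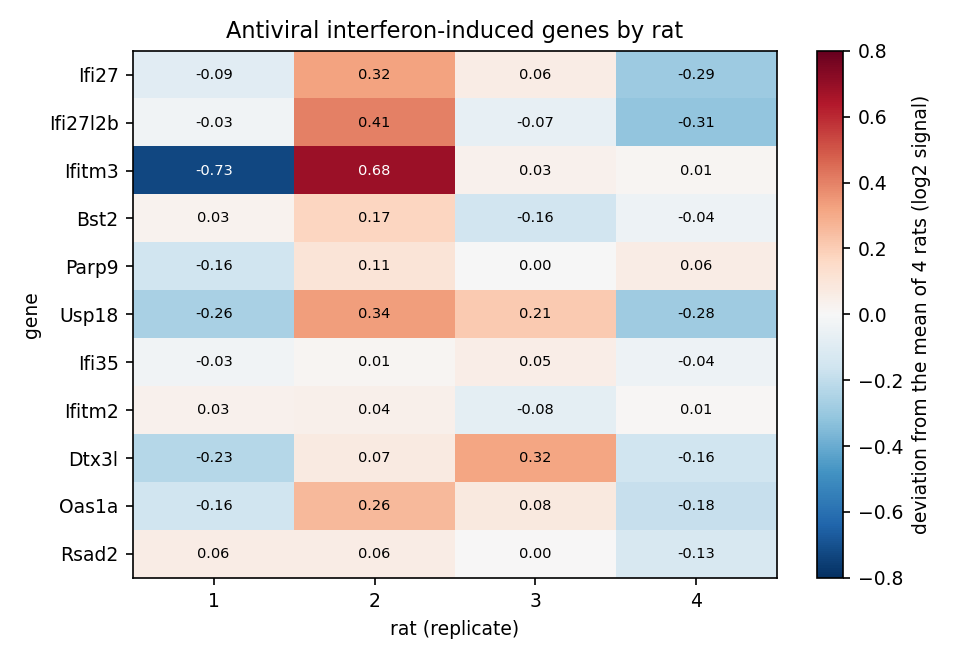
Deviation of the 11 antiviral interferon-induced genes above background and not flat (rows) from their own means over the 4 rats, in log2 units, by rat (columns), with red for higher and blue for lower. In replicate 2, 8 of the 11 genes have their highest value, and Ifitm3 has the widest spread of them, from 10.35 in replicate 1 to 11.76 in replicate 2.

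Each list of this paragraph stands beside 50.3% of all named genes above background. The list of interferon gamma induced GTPases and chemokines had 4 of 9 genes above background. Irgm2, an immunity-related GTPase, was at 11.05 ± 0.04 and the adhesion molecule Icam1 at 8.92 ± 0.13. Nos2 was flat at 8.42, and Wars1, a tRNA synthetase that interferon gamma induces, was at 8.39 ± 0.05. Class I presentation genes were above background for 13 of 20 genes, led by the chaperones Calr at 12.08 ± 0.04, Pdia3 at 11.88 ± 0.08 and Canx, flat at 10.70. RT1-T24-3 was at 8.78 ± 0.22. Class II presentation genes were above background for 10 of 10 genes, with the invariant chain Cd74 at 10.72 ± 0.15, RT1-Da at 10.55 ± 0.18 and the protease Ctss at 10.02 ± 0.09. Of these 10, 6 were lowest in replicate 1 and 6 were highest in replicate 4, against 29.5% and 20.7% of genes above background and not flat. In 7 of the 10, replicates 2 and 4 both lay above replicates 1 and 3, against 15.8%. Besides Cd74 and Ifi30 these were RT1-Da, RT1-Db1, RT1-Bb, RT1-DMb and RT1-DMa, which lie in the stretch chosen after its values were seen. RT1-Bb and RT1-DMa were above background only through replicates 2 and 4, so this count is no separate result.

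Ubiquitin-like modifiers and partners of Ubd were above background for 13 of 14 genes, against 50.3% of all named genes. Uba6, the enzyme that activates Ubd, was the exception, at 7.61, 7.68, 7.83 and 7.71 in replicates 1 to 4, and Ube2z, which carries Ubd onward, was at 9.39 ± 0.04. The autophagy receptor Sqstm1 was at 11.75 ± 0.08, the ATPase Vcp at 10.82 ± 0.10, the proteasome receptor Adrm1 at 9.15 ± 0.09 and Nedd8 was flat at 10.60. None of the 8 above background and not flat was lowest in replicate 1, against 29.5% of all such genes. Genes of the NF-kB and tumour necrosis factor response were above background for 6 of 16 genes, against the same 50.3%. The superoxide dismutase Sod2 was at 10.30 ± 0.11, the receptor Tnfrsf1a at 10.19 ± 0.02 and the factor subunit Rela at 9.24 ± 0.03. The NF-kB inhibitor Nfkbia was at 8.56, 8.75, 8.79 and 8.99 in replicates 1 to 4, lowest in replicate 1, where 29.5% of genes above background and not flat were. The other 3 genes of the list above background and not flat, Rela, Sod2 and Tnfrsf1a, were lowest in replicate 2 (28.8%), and Rela and Sod2 were highest in replicate 1 (24.8%).

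Likeness of pattern was measured as the root mean square difference between the deviations of 2 probe sets over the 4 rats, in log2 units, so smaller is more alike. The 5 nearest to Ubd were Ier3 at 0.179, Pde4b at 0.297, Dusp1 at 0.301, Tsc22d1 at 0.317 and Ifitm3 at 0.325. Ier3, an immediate early gene, was at 7.96, 9.13, 9.0 and 9.37 in replicates 1 to 4, and Dusp1, a phosphatase of MAP kinases, at 8.01, 9.43, 9.0 and 9.94. Pde4b breaks down cyclic AMP, and Tsc22d1 is a regulator of transcription. All 5 were lowest in replicate 1, but they were picked for likeness to Ubd, which was lowest there, so the shared rat is no separate evidence. Nearest to Psmb8 were Rarb, a retinoic acid receptor, at 0.0927, the matrix protein Sparc at 0.107, S100a6 at 0.139, the syndecan Sdc4 at 0.163 and Svil at 0.166. Nearest to Psmb9 were Sdf2l1 at 0.0422, Cyp2a1 at 0.057, Edem1 at 0.0626, Tspo at 0.0703 and Lcmt1 at 0.0704. Irf7 was most like Ltc4s at 0.06, Abhd2 at 0.0933, Galt at 0.1, Gldc at 0.109 and Ly6e, a surface protein that interferons induce, at 0.115. Ifgga2l1 was most like Depp1 at 0.0427, Nrep at 0.0584, Hsd17b6 at 0.072, the P450 reductase Por at 0.0928 and Prkab1 at 0.109. With 4 rats, many probe sets can share a pattern, and no chance level was computed.

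The tissue was checked against cell type markers, and each count above background stands beside 50.3% of all named genes. Hepatocyte genes were above it for 6 of 6, with albumin (Alb) at 15.06 ± 0.02. Macrophage genes were above background for 7 of 7, and 5 of the 6 not flat were highest in replicate 2, as Ubd, Irf7, Psmb8 and Psmb9 were, against 21.5% of genes above background and not flat. Of the 6, 3 were lowest in replicate 1, as these 4 genes were, against 29.5%. The median deviations of the 6 from their own means were -0.14, 0.09, 0.03 and -0.02 in replicates 1 to 4. The median signals over the 7 were 9.96, 10.05, 9.94 and 9.97, and their part in the results was not tested. Of the 13 T and natural killer cell genes, Cd4 alone was above background, and the other 12, including Cd3d, Cd3e, Cd3g and Cd8a, were below it. The medians over all 13 were 7.75, 7.77, 7.70 and 7.74 in replicates 1 to 4. The single B cell and dendritic cell genes, 2 neutrophil genes and 3 bile duct genes were below background too. Stellate cell and fibroblast genes were above background for 3 of 8. All 3 had replicates 2 and 4 above replicates 1 and 3, as Psmb8 did, against 15.8% of genes above background and not flat. Col1a1, 1 of the 3, was at 8.43, 8.88, 7.76 and 9.09 in replicates 1 to 4. It passed the level through replicates 2 and 4, so its call depends on the pattern itself and nothing is read from this share. The median deviations of the 3 genes from their own means were -0.10, 0.32, -0.60 and 0.31 in replicates 1 to 4. Col3a1, a fibrillar collagen, was at 10.80, 11.15, 10.23 and 11.15. The median signals over all 8, of which 5 were below background, were 8.13, 8.21, 7.99 and 8.18. Their part in the Psmb8 values was not tested. Endothelial genes were above background for 2 of 4. Red cell genes were above it for 2 of 3, and haemoglobin (Hbb) was at 11.46 ± 0.40. Hbb was higher in replicates 1 and 3 than in replicates 2 and 4, as Ifgga2l1 was. The same order was found in 6 of the 9 standard proteasome genes above background and not flat. Its share over all genes was not computed. The part of red cells in the Ifgga2l1 values was not tested.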

How the data were processed

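Liver RNA of 4 rats was hybridised to 4 Affymetrix arrays. The deposited values are log2 signals per probe set, and the submitters' processing notes name R 2.4.1, affy 1.12.2, GCRMA and RMA, without saying which gave these values. Their columns were used as deposited. GCRMA models probe background, and 35.2% of the genes above background had the same value on all 4 arrays to within 0.001. The cause of these equal values was not tested. They can belong to a probe set and not to the gene: Canx was flat on its brightest probe set but not on its others. A flat gene is therefore not shown to be equally expressed in the 4 rats.

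Probe sets were named through the platform annotation where it gives 1 symbol (12789 probe sets), and 12754 of these matched GRCr8 by gene number. A gene took its brightest probe set. The members and lists were chosen with earlier results of these data known. From each list the text names the 3 genes of highest mean and the 2 of highest SD above background, and the 5 probe sets nearest each member of SD at least 0.2 by likeness, plus genes that a result turned on, chosen after their values were seen. With 1 group there is no comparison and no test. Scripts (Python 3.11.15, numpy 2.4.6, pandas 2.3.3) were tested on simulated data. Alternatives were the background level, scaling, probe set choice and leaving out each rat.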

Additional observations from a re-analysis of the deposited data

Results flagged for a closer look

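In 70 sets of 4 values examined, 4 had 1 rat far from the others. Chance flags about 1 in 20 sets that were not picked for their values, and that rate does not apply here, since Ubd was chosen with its low value known and Pde4b and Abhd2 for their likeness to members. Ubd was at 8.43 in replicate 1, with the other rats between 9.85 and 10.02. Pde4b, the phosphodiesterase gene near Ubd in pattern, was at 7.71 in replicate 1, with the others between 8.48 and 8.62. It was picked for its likeness to Ubd, so the shared rat is no separate evidence. Abhd2, picked for likeness to Irf7, was at 10.08 in replicate 2, with the others between 9.64 and 9.68. Il12b, a cytokine subunit gene below background, was at 7.90 in replicate 1, with the others between 7.94 and 7.95.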

How the results depend on the processing

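Of 249 recomputed values, 18 were marked as moved and 0 as reversed, but most were spreads or counts, which have no direction to reverse. A value could change greatly without a mark: the SD of Ubd, 0.76 in the main setting, was not marked as moved without replicate 1. Some spreads depended on single rats. Without replicate 1 the SD was 0.0871 for Ubd and 0.145 for Psmb9. Without replicate 2 it was 0.0811 for Irf7, 0.0414 for Mx1 and 0.0089 for Irf1, and without replicate 3 it was 0.0122 for Mx2. Mx1 and Mx2 were below background. Whichever rat was left out, the SD of Psmb8 stayed between 0.338 and 0.481 and that of Ifgga2l1 between 0.254 and 0.442. With Myh1 in the background list, 3 genes in place of 7 were above background, 2 in place of 4 were lowest in replicate 1, 47 in place of 87 pathway genes passed and, in an alternative added after seeing the data, 4 of 4 in place of 8 of 11 antiviral genes not flat were highest in replicate 2. The median range of the genes was 0.651, beside a median SD of 0.275. Leaving out each rat in turn gave 7 to 7 genes above background, a median SD of 0.0966 to 0.337 and 85 to 87 pathway genes above background. Leaving out replicate 2, 3 or 4 gave a difference of replicate 1 from the remaining rats of -1.56 to -1.47 for Ubd. Without probe sets of the name suffixes s, x and a, 7 class I genes in place of 13 were above background. Of the genes lost, RT1-CE10, RT1-CE12, RT1-CE16 and RT1-T24-4 had no other probe set. They left the list and did not fall below the level. With the highest Bacillus control as the level, 4 ligand genes in place of 0 were above it. The background level rests on a list of genes, and calls of genes near it are limited by that. No paired analysis was possible because the rats form 1 group.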
